A study of Mus musculus with 87 samples.

Results

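The comparison asks what the loss of Jarid2 and Aebp2 does to RNA levels in mouse embryonic stem cells that already lack Pcl1-3 and Epop. It covers 6 of the 87 samples of the series. The Pcl1-3 + Jarid2 + Aebp2 + Epop KO, which lacks all the non-core subunits targeted in the study and is called the full non-core KO here, has 3 RNA libraries. The Pcl1-3 + Epop KO has another 3. Members were taken by the genotype that the labels give each RNA library, and 14650 of 55450 Ensembl gene IDs had enough counts to be tested. The study has 24 RNA libraries in 8 genotypes, and the other 6 genotypes serve here for comparison: Pcl1-3 + Jarid2 + Aebp2 KO, Pcl1-3 + Jarid2 KO, Pcl1-3 KO, Suz12 KO, Jarid2 + Aebp2 KO and WT. All cells grew on gelatin in 2i medium, which holds stem cells in the naive state with kinase inhibitors, and the labels name no other treatment, time or age. The full non-core KO and the Pcl1-3 + Epop KO share the loss of Pcl1-3 and of Epop. Effects of these losses are the same in both only where they do not depend on Jarid2 and Aebp2. The remaining 63 samples are chromatin immunoprecipitations and were not analysed here.

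Polycomb repressive complex 2 (PRC2) methylates a lysine in the tail of histone H3 and keeps developmental genes silent in stem cells. Around its core, which includes SUZ12, it forms a pair of variants. PRC2.1 holds a Polycomb-like protein (PCL1, PCL2 or PCL3, products of Phf1, Mtf2 and Phf19) and EPOP, and PRC2.2 holds JARID2 and AEBP2. JARID2 aids binding of the complex to chromatin, and AEBP2 is a zinc-finger protein that stimulates its activity. The Pcl1-3 + Epop KO thus lacks the accessory proteins of PRC2.1 that the study targeted, and the full non-core KO lacks those of PRC2.2 as well.

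The files give Ensembl IDs without symbols, and no source used here pairs them. Levels of the targeted genes, stem cell and lineage markers, gene lists and genes near Polycomb peaks could therefore not be looked up, so genotype labels and cell type were not checked against gene levels. Separate cultures or clones within a genotype are not mentioned in the labels, so each p-value covers only the spread among the libraries at hand, and that spread may be technical. The strain label runs from 129B6F1 in WT upward with the genotype and is 129B6F8 in the full non-core KO and 129B6F4 in the Pcl1-3 + Epop KO, so strain as labelled and genotype cannot be told apart.

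Total counts were 11454093, 12843034 and 12686418 in the full non-core KO and 13290330, 12632199 and 11643917 in the Pcl1-3 + Epop KO, within 10148155 to 28442061 over all 24 libraries. CPM are counts scaled to library size. At least 1 CPM was found for 12535 ± 137 IDs in the full non-core KO and 12370.0 ± 247 in the Pcl1-3 + Epop KO (SD, n = 3 each; exact permutation test, two-sided, p = 0.3, where 0.1 is the smallest possible). The root mean square difference in log2 CPM was 0.793 to 1.03 over the 9 pairs of libraries between the groups, 0.445 to 0.621 within the full non-core KO and 0.486 to 0.882 within the Pcl1-3 + Epop KO. Replicate 3 of the Pcl1-3 + Epop KO stood apart from its group: it lay 0.882 from replicate 1 and 0.671 from replicate 2, which lay 0.486 from each other. The median SD of log2 CPM over IDs was 0.246 in the full non-core KO and 0.284 in the Pcl1-3 + Epop KO, above the 0.157 to 0.215 of the other 6 genotypes.

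The loss of Jarid2 and Aebp2 in this background changed RNA levels widely and in both directions. Of the 14650 IDs tested, 1899 (13%) rose in the full non-core KO and 2007 (13.7%) fell. That is 3906 (26.7%) in all (edgeR quasi-likelihood test over all 24 libraries, Benjamini-Hochberg adjusted p under 0.05). This fit leaves out the replicate number, by which the libraries pair in these data. With that number as a block, 5520 IDs passed, 2729 risen and 2791 fallen. Larger changes were more often upward: 863 IDs rose and 672 fell past 2-fold, 352 and 243 past 4-fold, and 148 and 85 past 8-fold. Risen IDs had a median log2 fold change of 0.89 and fallen IDs of −0.72, against −0.02 over all IDs tested. In bulk RNA, fewer cells that express a gene and less RNA per cell cannot be told apart.

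The libraries of the groups did not overlap for 3470 of the 3906 changed IDs (88.8%; 1722 risen and 1748 fallen), against 4786 of all tested IDs (32.7%). The risen IDs held 14.3%, 14.6% and 16.2% of all counts in the full non-core KO, against 10.1%, 10.2% and 9.98% in the Pcl1-3 + Epop KO. The fallen IDs held 8.57%, 8.21% and 7.09% in the full non-core KO, against 11.7%, 11.7% and 12.9% in the Pcl1-3 + Epop KO. These shares were chosen by the test and only describe how much of the RNA the changed IDs make up. With only these 6 libraries in the fit, 1259 of the 12995 IDs tested in it passed, 669 risen and 590 fallen. Of these 1259, 1257 (99.8%) were among the 3906, all in the same direction. That fit estimates the spread from 4 residual degrees of freedom in place of 16, and its biological coefficient of variation was 0.224 in place of 0.170. Both fits hold these 6 libraries, so the shared calls and directions are largely fixed in advance and add no support. Calls made only with 24 libraries rest partly on the spread of the other 6 genotypes, whose median SD was lower.

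**Figure D1:**
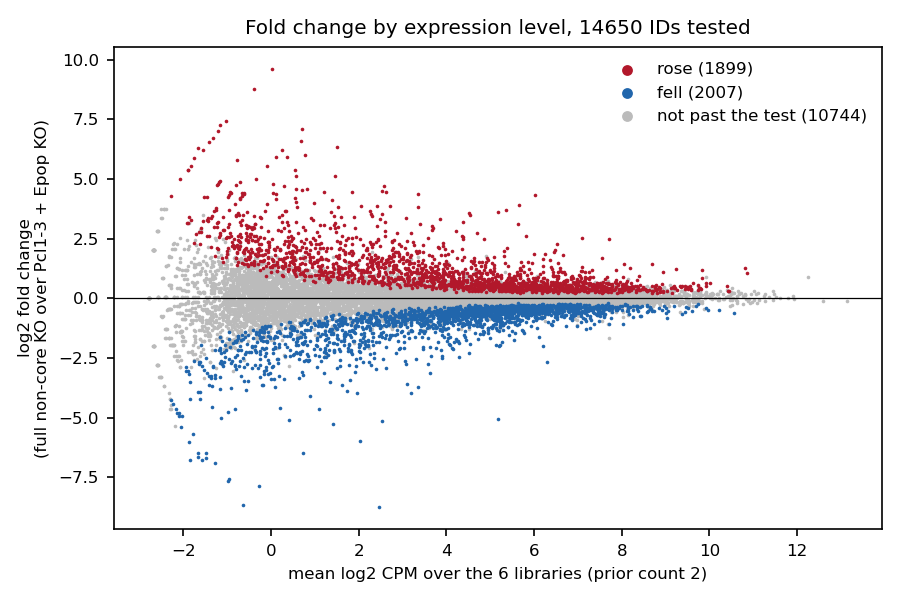
Log2 fold change of the full non-core KO over the Pcl1-3 + Epop KO (y axis) against mean log2 CPM over the 6 libraries (x axis, prior count 2), 1 point per ID. Red points rose (1899) and blue points fell (2007); changes of the widest span lie among weakly expressed IDs, and called changes reach to the most abundant ones.

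Changes past 2-fold, both rises and falls, were concentrated among weakly expressed IDs. Counting changes of any size, more IDs fell than rose between 20 and 100 CPM. Classes were set by the mean CPM over all 24 libraries. Past 2-fold, 224 of the IDs under 1 CPM rose and 97 fell, and 313 of those between 1 and 5 CPM rose and 248 fell. Under 1 CPM, 225 of 1907 IDs rose and 97 fell, with median log2 fold changes of 2.44 and −2.66. Between 1 and 5 CPM, 375 of 2533 rose and 291 fell (medians 1.60 and −1.63). Between 5 and 20 CPM the order turned, with 415 of 2884 risen and 481 fallen (medians 1.01 and −0.89), but without Pcl1-3 + Epop KO replicate 3 it was 456 risen and 415 fallen, and with replicates 1 and 2 alone 377 and 306. Between 20 and 100 CPM, 572 of 4891 rose and 863 fell (medians 0.56 and −0.55), and more fell than rose also without each of the 6 libraries in turn. Over all levels the balance of risen and fallen IDs turned without Pcl1-3 + Epop KO replicate 3 (1916 and 1737), without full non-core KO replicate 2 (1615 and 1509) and with replicates 1 and 2 alone (1568 and 1302). At 100 CPM or more, 312 of 2435 rose and 275 fell, with medians of 0.46 and −0.46. Of these most abundant IDs, 21 rose and 13 fell by more than 2-fold. Fold changes are also less precise at low counts, which raises the medians of called IDs there.

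Values by library follow for the 2 IDs that rose and the 2 that fell by the largest factor among the 1638 risen and 1677 fallen IDs with at least 1 CPM in a group and no overlap between groups. ENSMUSG00000095139.2 had 74, 106 and 74 counts in the full non-core KO and 0 in all 3 Pcl1-3 + Epop KO libraries. Its level was 7.06 ± 1.15 CPM in the full non-core KO (SD, n = 3), at least 88.5-fold above a floor of 3 counts over the Pcl1-3 + Epop KO group (edgeR adjusted p = 1.86e-08). It was lower in every other genotype: 1.04 ± 0.318 CPM in Pcl1-3 + Jarid2 + Aebp2 KO, 0.969 ± 0.308 in Pcl1-3 + Jarid2 KO, 0.0413 ± 0.0446 in Pcl1-3 KO, 1.40 ± 0.149 in Suz12 KO, 0.0265 ± 0.0458 in Jarid2 + Aebp2 KO and 0.188 ± 0.110 in WT (SD, n = 3 each). It rose past the test also when Jarid2 and Aebp2 were lost from the Pcl1-3 KO (edgeR adjusted p = 0.000180) and when Suz12 was lost (adjusted p = 0.000126).

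ENSMUSG00000038210.10 was found at more than 1 CPM in 2 of the 8 genotypes. It had 46, 50 and 44 counts in the full non-core KO and 0 in all 3 Pcl1-3 + Epop KO libraries, which is 3.92 ± 0.231 CPM (SD, n = 3) and at least 48.8-fold above the floor of 3 counts over the group (edgeR adjusted p = 2.35e-06). Suz12 KO had 4.08, 4.20 and 3.27 CPM, a mean of 3.85 ± 0.503 (SD, n = 3; edgeR adjusted p = 1.27e-06 against WT, where all libraries had 0 counts). The other genotypes averaged 0.0118 to 0.0830 CPM, with at most 3 counts in a library.

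ENSMUSG00000030232.18 had 0, 6 and 2 counts in the full non-core KO, against 1166, 1349 and 1200 in the Pcl1-3 + Epop KO. The means were 0.213 ± 0.240 CPM in the full non-core KO and 99.5 ± 9.48 CPM in the Pcl1-3 + Epop KO (SD, n = 3 each). The ratio was 444 in favour of the Pcl1-3 + Epop KO, with an exact 95% interval of 225 to 1029 that covers counting error only (log2 fold change −8.74, SE 0.34, edgeR adjusted p = 1.95e-13). The level followed the labels: it was at most 0.473 CPM in each of the 9 libraries whose genotype names Aebp2 and at least 70.5 CPM in each of the other 15. No other tested ID showed this pattern with an 8-fold gap. That pattern was looked for after the values had been seen. The ID has no symbol in the sources used here, so whether it is a targeted gene could not be checked. In Pcl1-3 + Jarid2 KO, which keeps Aebp2, it averaged 181 ± 31.9 CPM, against 90.4 ± 19.2 CPM in Pcl1-3 KO (SD, n = 3 each; edgeR adjusted p = 0.00148). By the same search, 1 ID was at most 11.7 CPM in the 12 libraries whose genotype names Jarid2 and at least 139 CPM in the other 12.

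ENSMUSG00000052726.15 had 0 counts in all 3 full non-core KO libraries and 15, 28 and 87 counts in the Pcl1-3 + Epop KO. At 1.14, 2.21 and 7.48 CPM the Pcl1-3 + Epop KO libraries varied widely, and replicate 3 was the highest. The full non-core KO was at least 41.4-fold lower by the floor of 3 counts over its group (edgeR adjusted p = 0.000103). Means elsewhere were 0.756 ± 0.584 CPM in Pcl1-3 + Jarid2 + Aebp2 KO, 0.827 ± 0.0976 in Pcl1-3 + Jarid2 KO, 2.79 ± 0.991 in Pcl1-3 KO, 0.549 ± 0.345 in Suz12 KO, 3.25 ± 1.53 in Jarid2 + Aebp2 KO and 2.06 ± 0.733 in WT (SD, n = 3 each).

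**Figure D2:**
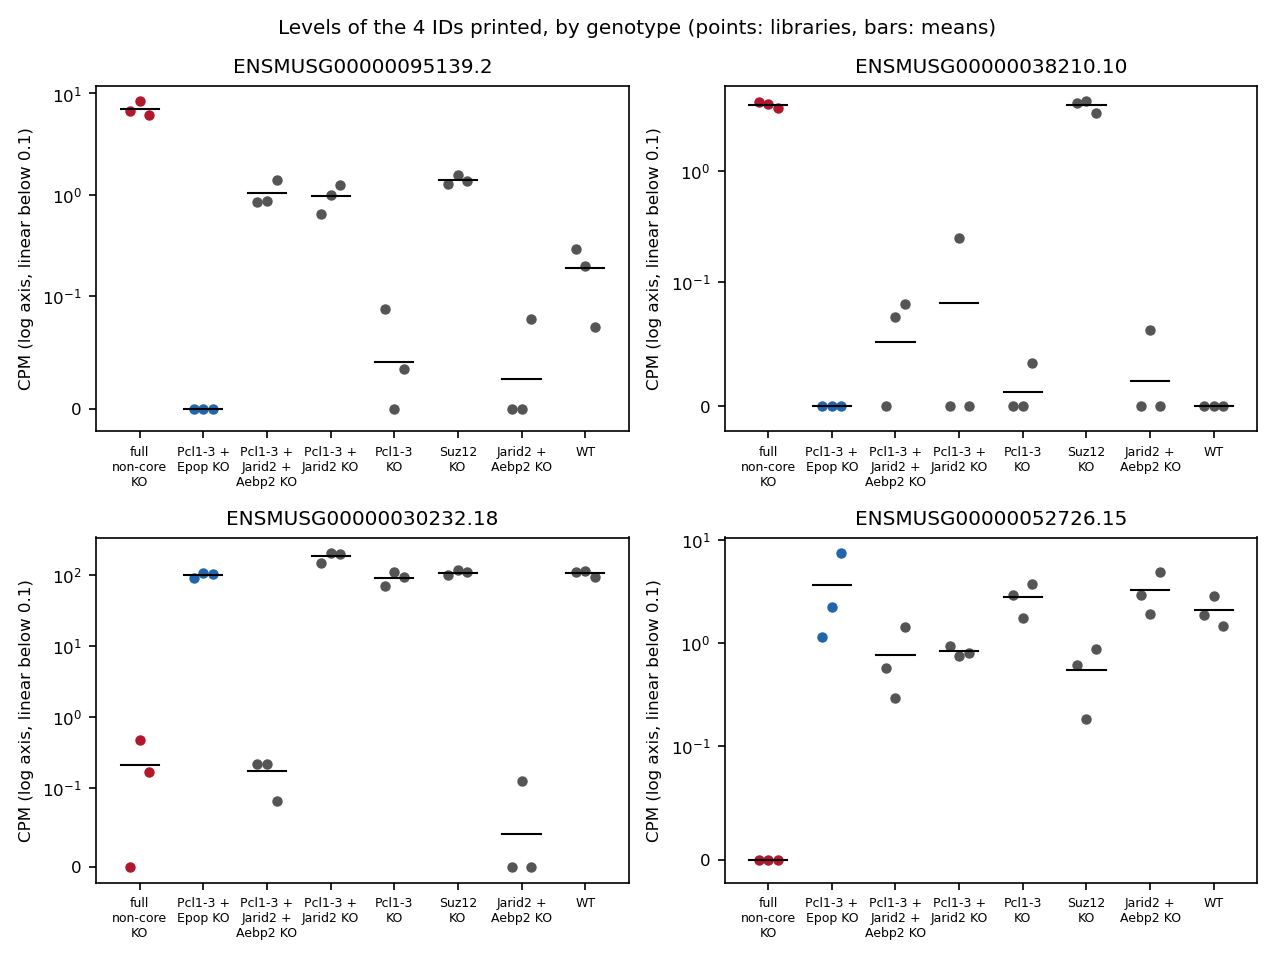
CPM of the 4 IDs in each of the 24 libraries (points) with genotype means (bars), full non-core KO at left; the y axis is logarithmic and linear below 0.1 CPM. The first ID is highest in the full non-core KO, the second shares its level with Suz12 KO, the third is near 0 in the 3 genotypes that lose Aebp2, and the last is at 0 in the full non-core KO alone.

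A stricter rule picked out IDs that went on or off. It required a mean of at least 2 CPM in one group and under 0.5 CPM in the other, with no overlap between libraries. Expression was gained in the full non-core KO by 51 IDs (0.348%) and lost by 33 (0.225%), of 1110 and 991 IDs that were under 0.5 CPM on the low side. All of them, gained and lost, also passed the edgeR test. The gained IDs had a median of 4.01 CPM in the full non-core KO (range 2.01 to 24.9) and 0.294 CPM in the Pcl1-3 + Epop KO (0 to 0.498). Their medians elsewhere were 0.625 CPM in Pcl1-3 + Jarid2 + Aebp2 KO, 1.10 in Pcl1-3 + Jarid2 KO, 0.214 in Pcl1-3 KO, 3.54 in Suz12 KO, 0.473 in Jarid2 + Aebp2 KO and 0.360 in WT. None was under 0.5 CPM in all 7 genotypes other than the full non-core KO.

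In Suz12 KO, 30 of the 51 gained IDs reached 2 CPM and 2 stayed under 0.5 CPM. In WT, 6 of the 51 were at 2 CPM or more and 28 under 0.5 CPM, and 13 of those 28 reached 2 CPM in Suz12 KO. By the edgeR test, 43 of the 51 (84.3%) rose in Suz12 KO against WT, compared with 675 of the 1110 IDs under 0.5 CPM in the Pcl1-3 + Epop KO (60.8%) and 20.7% of all IDs tested. The filter on low counts keeps such IDs through the genotypes where they are higher, Suz12 KO among them, so this count is a description. The 33 lost IDs, ENSMUSG00000030232.18 among them, had a median of 0.289 CPM in the full non-core KO and 2.54 CPM in the Pcl1-3 + Epop KO. Their medians were 1.16 CPM in Pcl1-3 + Jarid2 + Aebp2 KO, 1.46 in Pcl1-3 + Jarid2 KO, 3.02 in Pcl1-3 KO, 2.64 in Suz12 KO, 3.76 in Jarid2 + Aebp2 KO and 3.71 in WT.

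**Figure D3:**
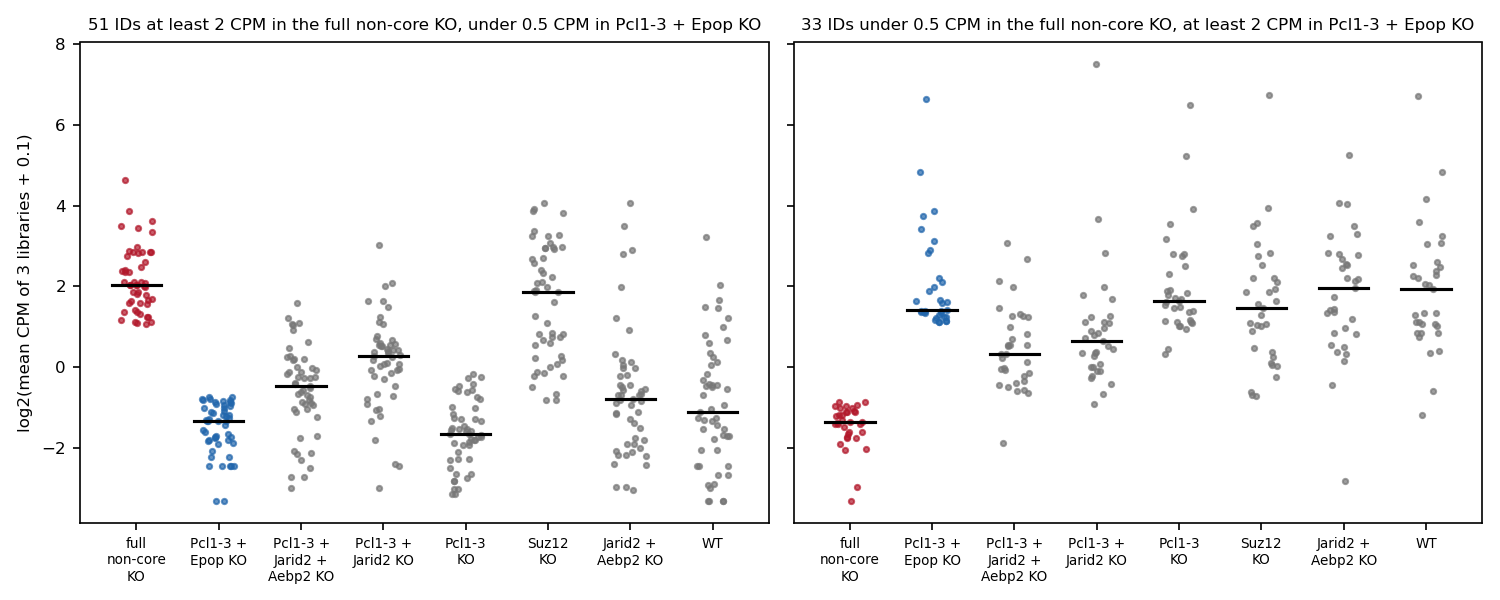
Mean CPM of each of the 51 gained (left) and 33 lost IDs (right) in the 8 genotypes, on a log2 scale with 0.1 added; bars are medians. The full non-core KO and Pcl1-3 + Epop KO differ by selection; among the others, the gained IDs are highest in Suz12 KO (median 3.54 CPM) and the lost IDs lowest in Pcl1-3 + Jarid2 + Aebp2 KO (median 1.16 CPM).

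The same loss was measured in cells that lack Pcl1-3 but keep Epop, with libraries that are not in the main comparison. There, 436 IDs rose (2.98%) and 353 fell (2.41%), 789 (5.39%) in all, in Pcl1-3 + Jarid2 + Aebp2 KO against Pcl1-3 KO. Of those 436, 343 (78.7%) also rose in the full non-core KO, where 13% of all IDs rose, and 8 fell; seen from the other side, the 343 were 18.1% of the 1899. Of the 353, 243 (68.8%) also fell in the full non-core KO and 9 rose; they were 12.1% of the 2007. The IDs risen in the Pcl1-3 KO background had a median log2 fold change of 0.84 in the full non-core KO comparison and 0.81 in their own, and the fallen ones −0.79 and −0.91. Of all 1899 risen IDs 86.7% had a positive and of the 2007 fallen IDs 89.3% a negative value in the Pcl1-3 KO background, against 49.2% and 50.7% of all IDs. Leaving out those past both tests, it was 1303 of 1556 (83.7%) and 1549 of 1764 (87.8%). Across the 14650 IDs, which are not independent, Pearson's r of the log2 fold changes was 0.530.

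The size of the smaller list depends on single libraries. It held 350 and 357 IDs without Pcl1-3 KO replicates 3 and 1, 418 and 462 without Pcl1-3 + Jarid2 + Aebp2 KO replicates 2 and 3, and 1920 in the fit with the replicate block. The shares of the same sign kept to 81.5% to 87.9% for risen and 85.3% to 90.9% for fallen IDs when any 1 library of the 4 genotypes was left out. The shares of the smaller list moved more, between 67.1% and 86.6% for the 78.7% and between 58.2% and 72.3% for the 68.8%. Libraries of the same replicate number deviated together, with r of 0.200, 0.462 and 0.710 between the Pcl1-3 + Epop KO and the Pcl1-3 KO, so the comparisons are not fully independent although they share no library.

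Whether the effect differed with Epop lost was tested as the difference between the effects. It passed for 306 IDs (2.09%): the effect was higher in the Pcl1-3 + Epop KO background than in the Pcl1-3 KO background for 149 (1.02%) and lower for 157 (1.07%; edgeR quasi-likelihood test). Of the 1899 risen IDs 134 (7.06%) had a higher effect, and of the 2007 fallen IDs 151 (7.52%) a lower one; these IDs were chosen in libraries that enter the difference, which favours these directions. In the fit with the replicate block 914 IDs passed, 464 higher and 450 lower. The count was 194 without full non-core KO replicate 2 and 193 without Pcl1-3 KO replicate 3. A difference that did not pass does not show that effects were equal. ENSMUSG00000095139.2 and ENSMUSG00000052726.15, the first risen and the last fallen of the IDs printed, did not pass (edgeR adjusted p = 0.156 and 0.0662).

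**Figure D4:**
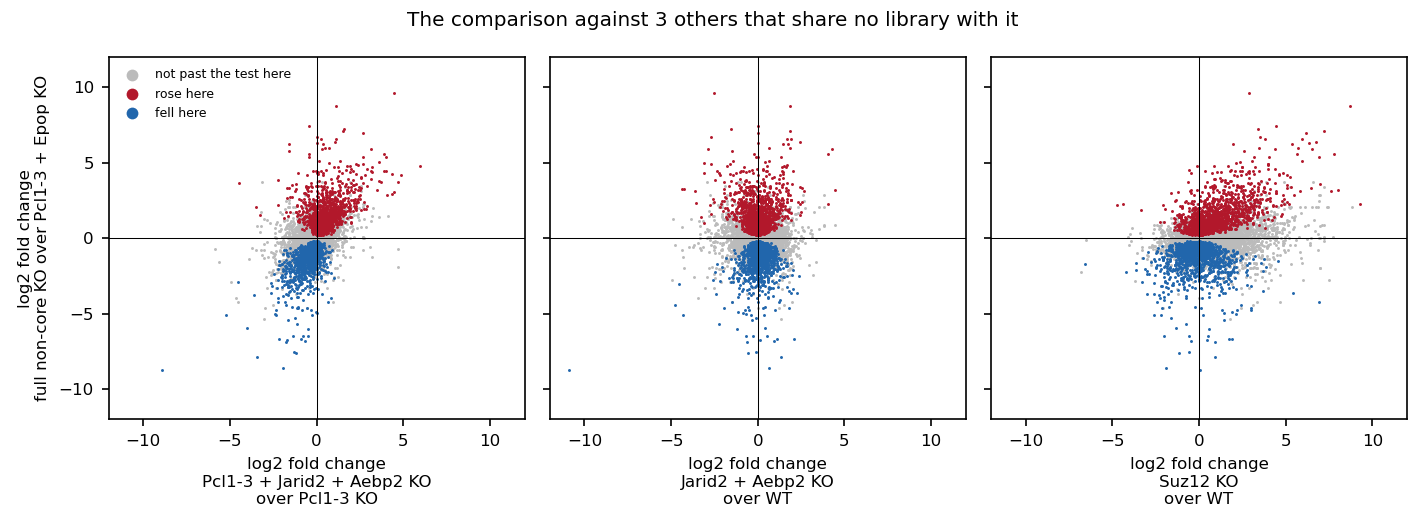
Log2 fold change of the full non-core KO over the Pcl1-3 + Epop KO (y axis) against that of Pcl1-3 + Jarid2 + Aebp2 KO over Pcl1-3 KO (left), Jarid2 + Aebp2 KO over WT (middle) and Suz12 KO over WT (right), 1 point per ID; red rose and blue fell in the full non-core KO. Across IDs, r is 0.530 at left, −0.0226 in the middle and 0.313 at right.

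In WT cells, with PRC2.1 intact, the loss of Jarid2 and Aebp2 had an effect that differed for many IDs. Jarid2 + Aebp2 KO had 643 changed IDs against WT (4.39%), 331 risen (2.26%) and 312 fallen (2.13%). Of the 331, 64 rose in the full non-core KO (19.3%) and 71 fell (21.5%), against 13% and 13.7% of all IDs. Of the 312, 50 fell there (16.0%) and 71 rose (22.8%). The 19.3% became 32.5% without Jarid2 + Aebp2 KO replicate 1 and 30.0% without WT replicate 1, and the 16.0% became 8.33% without Jarid2 + Aebp2 KO replicate 3. The difference between the effects passed for 3374 IDs (23.0%), with a higher effect in the Pcl1-3 + Epop KO background for 1511 (10.3%) and a lower one for 1863 (12.7%). Among the 1899 risen IDs 1086 (57.2%) had a higher effect and among the 2007 fallen 1312 (65.4%) a lower one, again in libraries that chose them. Opposite calls in the 2 backgrounds were made for 71 IDs that rose in the full non-core KO and 71 that fell. All of these passed the test of the difference, which opposite calls in the same fit make nearly certain. ENSMUSG00000095139.2 (edgeR adjusted p = 1.18e-05) and ENSMUSG00000052726.15 (0.000465) were among the IDs whose effects differed, while ENSMUSG00000030232.18 (0.150) did not pass. For ENSMUSG00000038210.10, with 0 counts in both the Pcl1-3 + Epop KO and WT, the test could not measure the difference (SE 11210 on the log2 scale). These IDs were picked for their large change in libraries that enter the difference.

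Of the risen IDs 42.9% had a positive value in Jarid2 + Aebp2 KO against WT, and of the fallen IDs 38.6% a negative one, and r across IDs was −0.0226. These shares passed 50% without Pcl1-3 + Epop KO replicate 3, at 53.5% and 50.4%, so which way they lean rests on that library. The count of 643 also moved with single libraries: it was 245 and 82 without Jarid2 + Aebp2 KO replicates 1 and 3, 95, 265 and 344 without WT replicates 1, 2 and 3, and 1026 without Pcl1-3 + Epop KO replicate 3, which enters it only through the filter, the scaling and the estimate of the spread. Of the 343 IDs that rose in both backgrounds without Pcl1-3, 23 also rose in WT. By the test of the difference, 243 of the 343 (70.8%) had a higher effect in the full non-core KO comparison than in WT. This was so for 57.2% of the 1899 risen IDs and 10.3% of all IDs. Of the 243 that fell in both, 17 also fell in WT, and 183 (75.3%) had a lower effect. This was so for 65.4% of the 2007 fallen IDs and 12.7% of all IDs. The libraries of the full non-core KO comparison enter both the choice of these IDs and the difference, which favours these directions.

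Within the Pcl1-3 KO background the losses of Jarid2 and Aebp2 were also made in steps. For Jarid2 loss alone, Pcl1-3 + Jarid2 KO differed from Pcl1-3 KO for 918 IDs (6.27%), 543 higher (3.71%) and 375 lower (2.56%). Of the 543, 390 (71.8%) also rose in the full non-core KO, which is 20.5% of its 1899. Of the 375, 252 (67.2%) also fell, 12.6% of its 2007. With 1 library left out, the 71.8% moved between 62.1% and 80.9% and the 67.2% between 59.9% and 76.2%. The reference is again the Pcl1-3 KO, whose libraries deviated together with those of the Pcl1-3 + Epop KO, so this comparison is not fully independent. Of the risen IDs 86.6% had a positive and of the fallen 87.1% a negative value in this step, and r across IDs was 0.557. For the further loss of Aebp2, Pcl1-3 + Jarid2 + Aebp2 KO differed from Pcl1-3 + Jarid2 KO for 132 IDs (0.901%), 50 higher (0.341%) and 82 lower (0.560%). Of the 50, 19 (38%) rose and 12 (24%) fell in the full non-core KO, and of the 82, 30 (36.6%) rose and 19 (23.2%) fell, against 13% and 13.7% of all IDs. These shares lie above the background in both directions, and r across IDs was −0.0705. RNA of either single loss in cells without Epop was not analysed here, and the difference between the steps was not tested.

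Of the 51 gained IDs, 23 (45.1%) rose in the Jarid2 step, against 6.58% of the 1110 IDs under 0.5 CPM in the Pcl1-3 + Epop KO. The 51 were chosen for at least 2 CPM in the full non-core KO, and the filter keeps many of the 1110 through other genotypes. These shares are therefore not like for like and only describe. The gained IDs had a median of 1.10 CPM in Pcl1-3 + Jarid2 KO and 0.214 CPM in Pcl1-3 KO. In the Aebp2 step 1 of the 51 fell and the others did not pass. Of the 51, 78.4% had a negative value in that step (median log2 fold change −0.96), against 62.2% of the 1110 (−0.34). The Pcl1-3 + Jarid2 KO libraries enter the Jarid2 step and the Aebp2 step with opposite sign, which favours opposite values. The total of 918 IDs for the Jarid2 step was 465 and 576 without Pcl1-3 KO replicates 1 and 3, 511 and 414 without Pcl1-3 + Jarid2 KO replicates 2 and 3, and 1949 with the replicate block. The total of 132 for the Aebp2 step was 51 and 67 without Pcl1-3 + Jarid2 + Aebp2 KO replicates 1 and 2, 68 and 35 without Pcl1-3 + Jarid2 KO replicates 2 and 3, and 432 with the block.

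**Figure D5:**
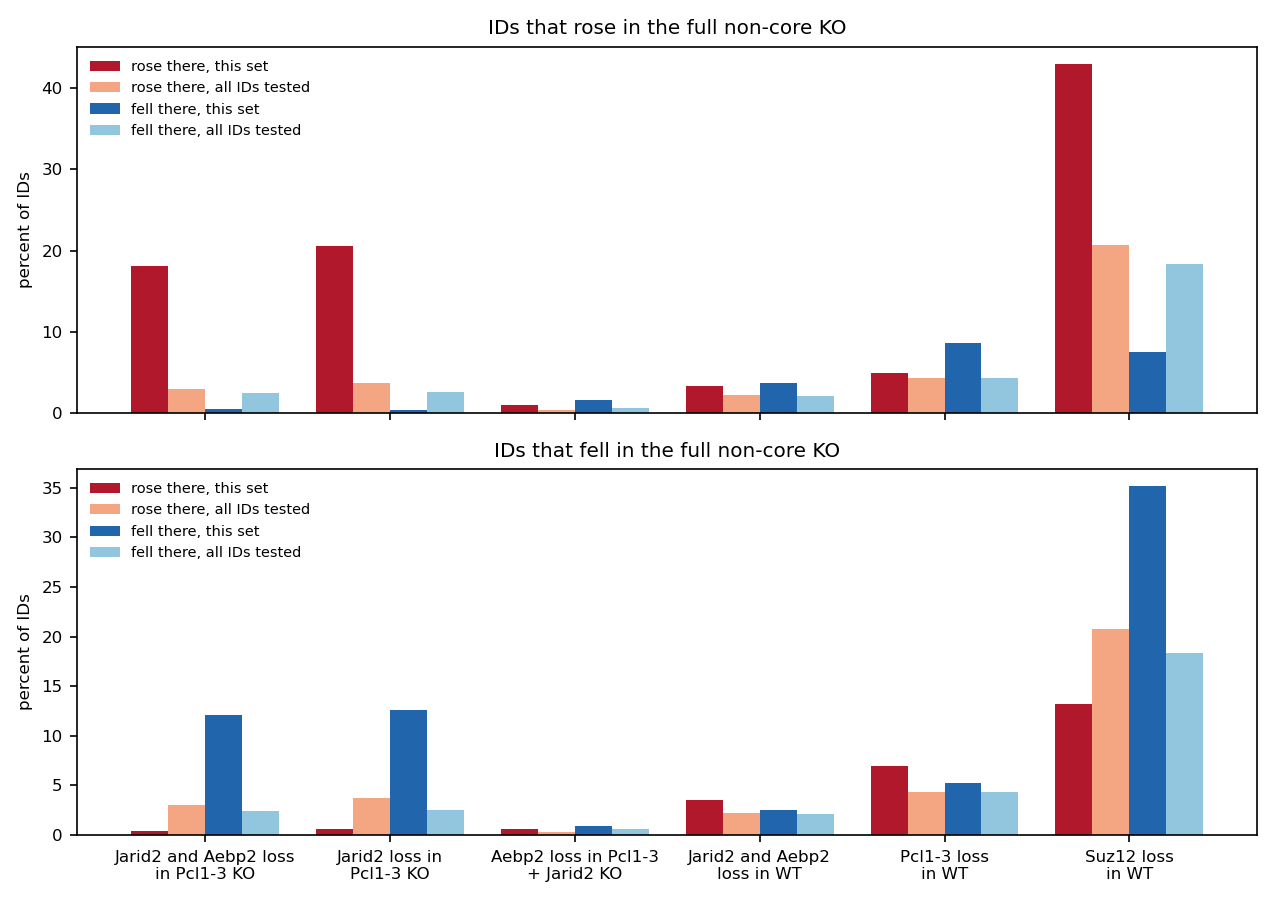
Percent of the 1899 risen (top) and 2007 fallen IDs (bottom) that rose (dark red) or fell (dark blue) in 6 other comparisons, beside the percent of all 14650 IDs (light bars). The dark bars stand well above the light ones in the same direction for the first comparison, Jarid2 and Aebp2 loss in Pcl1-3 KO (18.1% against 2.98% for risen IDs), for Jarid2 loss in Pcl1-3 KO (20.5% against 3.71%) and for Suz12 loss in WT (42.9% against 20.7%).

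Loss of SUZ12 removes a core subunit and so both variants of PRC2. Suz12 KO differed from WT for 5721 IDs (39.1%), 3038 higher (20.7%) and 2683 lower (18.3%). Of the 1899 IDs risen in the full non-core KO 815 (42.9%) rose in Suz12 KO and 142 (7.48%) fell; of those risen more than 2-fold it was 533 of 863 (61.8%). Of the 2007 fallen IDs 705 (35.1%) fell in Suz12 KO and 265 (13.2%) rose. From the other side, the full non-core KO comparison held 26.8% of the 3038 IDs risen in Suz12 KO and 26.3% of the 2683 fallen. Values of the same sign were found for 71.6% of the risen and 64.8% of the fallen IDs, against 48.2% positive and 51.8% negative over all IDs, and r across IDs was 0.313. Of the fallen IDs past 2-fold, 201 of 672 (29.9%) fell in Suz12 KO and 143 (21.3%) rose, against 18.3% and 20.7% of all IDs. Changes past 2-fold lie mostly among weakly expressed IDs, which the filter keeps partly through Suz12 KO. The shares past 2-fold are therefore a description.

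Pcl1-3 KO differed from WT for 1274 IDs (8.70%), 637 in each direction (4.35% and 4.35%). Of the 1899 risen IDs 93 (4.90%) rose and 164 (8.64%) fell in Pcl1-3 KO against WT, and of the 2007 fallen IDs 106 (5.28%) fell and 139 (6.93%) rose. Of the risen IDs 40.8% had a positive and of the fallen 36.8% a negative value, which became 51.0% and 50.8% without Pcl1-3 + Epop KO replicate 3. That total was 660 and 470 without Pcl1-3 KO replicates 1 and 3, and 463, 750 and 840 without WT replicates 1, 2 and 3.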

How the data were processed

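RNA came from mouse embryonic stem cells (total RNA, TruSeq RNA v2 libraries, per the labels' protocols). The authors deposited raw read counts, 1 whole number per Ensembl ID and library. Per the submitters' processing notes, STAR, HTSeq and mm10 were used; versions and strand setting are not stated there. Antisense, overlapping and near-identical genes are therefore uncertain.

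Of 55450 IDs, 24056 had no count in any of the 24 RNA libraries and 14650 passed filterByExpr. Counts were scaled by TMM and fitted with 1 mean per genotype over the 24 libraries with edgeR 4.0.16 in R 4.3.3 (robust quasi-likelihood, Benjamini-Hochberg adjusted p under 0.05 over all IDs, no fold threshold). CPM are TMM-scaled; plotted log2 CPM used a prior count of 2. A fold against a group with 0 counts used 3 counts over that group; this floor and the 95% interval cover counting error only. Differences between effects were contrasts of 4 genotypes. The code was tested on simulated counts.

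The planned gene lists, targeted genes and peak-bound genes needed symbols or positions for the IDs and were not run; the peak lists were not used. The rule for named genes then fell back on the 2 highest and 2 lowest IDs. Members and lists were chosen with earlier results of these data known.

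Replicate numbers are shared across genotypes, but no label says what they mark. From the data they pair the libraries: deviations of same-numbered libraries from their genotype means correlated at 0.144 to 0.225 in the main comparison (3 of 3 pairs over 0.1), where all 6 libraries correlated best with their own number, and at 0.143 to 0.710 over the 4 genotypes with Pcl1-3 loss (18 of 18). The block was an alternative, as were DESeq2 1.42.0, its size factors, no filter, only the compared genotypes, other thresholds, leaving out each library, and replicates 1 and 2 alone; the last, and expression classes under left-out libraries, were added after the data were seen.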

Additional observations from a re-analysis of the deposited data

Results flagged for a closer look

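The effect of losing Jarid2 and Aebp2 differed between the Pcl1-3 + Epop KO background and WT for 3374 of 14650 IDs (edgeR quasi-likelihood test of the difference, adjusted p under 0.05). Between the Pcl1-3 + Epop KO and Pcl1-3 KO backgrounds the difference passed for 306 IDs. ENSMUSG00000095139.2 rose in the Pcl1-3 + Epop KO background and did not pass in WT (edgeR adjusted p = 0.161): the full non-core KO had 7.06 ± 1.15 CPM and the Pcl1-3 + Epop KO 0 counts, while Jarid2 + Aebp2 KO had 0.0265 ± 0.0458 CPM and WT 0.188 ± 0.110 CPM (SD, n = 3 each; edgeR adjusted p of the difference = 1.18e-05). ENSMUSG00000052726.15 had 0 counts in the full non-core KO and 3.61 ± 3.39 CPM in the Pcl1-3 + Epop KO, while Jarid2 + Aebp2 KO had 3.25 ± 1.53 CPM and WT 2.06 ± 0.733 CPM (SD, n = 3 each; edgeR adjusted p of the difference = 0.000465). Both IDs were picked for their large change in libraries that enter the difference. Of the other 2 IDs printed, ENSMUSG00000030232.18 did not pass it (edgeR adjusted p = 0.150). For ENSMUSG00000038210.10 the test could not measure the difference, since the Pcl1-3 + Epop KO and WT both had 0 counts. No group holds more than 3 libraries, so single libraries were not tested as outliers.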

How the results depend on the processing

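The full non-core KO comparison called 2789 to 4163 IDs when each of its libraries was left out, 1259 with only its genotypes fitted, 1398 with these and the replicate block, 1535 past 2-fold and 2162 at an adjusted p under 0.01; gained IDs numbered 49 to 70 and lost IDs 25 to 43. The difference from the effect in WT was called for 2388 to 3725 IDs without 1 library, 2025 with only its genotypes and 1675 with replicates 1 and 2. With the replicate block it was 5095; there 13 of 18 same-numbered pairs correlated over 0.1 (0.0315 to 0.628), so the numbers are not taken to pair those libraries. The difference from the effect in Pcl1-3 KO was called for 193 to 419 IDs without 1 library, 914 with the block, 699 without the filter, 498 by DESeq2 and 89 with only its genotypes. Jarid2 + Aebp2 KO against WT had 2281 changed IDs with the block, 1444 without the filter and 1055 by DESeq2, and Pcl1-3 KO against WT 2895 with the block and 2001 without the filter; these numbers too are not taken to pair libraries with WT. With only the 4 genotypes of the difference fitted, Jarid2 + Aebp2 KO against WT had 85 changed IDs, and with replicates 1 and 2 alone 329. Pcl1-3 + Jarid2 + Aebp2 KO against Pcl1-3 KO had 279 and 466 under the same settings. Suz12 KO against WT stayed within 4767 to 7259. The cause of these shifts was not tested. For the 4 IDs named, the block ended no call in the main comparison, nor the 2 calls of a difference from WT. Their calls in other comparisons were not checked with the block. In the main comparison it called 5520 IDs, all 3906 among them, and DESeq2 called 4060, with 3782 shared. The 4 IDs named kept their direction and call in all 13 alternatives each; the largest adjusted p of the weakest was 0.0181.

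Depth limits IDs under 1 CPM, where a library gives few counts. Gene lists and peak distances were not run under any setting, since the IDs could not be matched.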
